A study of Bos taurus with 16 samples.

Results

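Galectins are the probes whose gene name, or bracketed gene symbol in the array's annotation, starts with LGALS. This rule found 9 probes of 8 genes among 21475 probes under 20602 gene names on the bovine array, and it reads names and no measured value. The 8 genes were LGALS1, LGALS2, LGALS3, LGALS4, LGALS8 (2 probes), LGALS9, LGALS12 and LGALS3BP, the last of which codes for a galectin-binding glycoprotein and not for a galectin. The study compared sorted CD14+ cells from endometrium with sorted CD14+ cells from blood of 4 pregnant cows, to learn how the uterine cells differ from those in the circulation. Animals 1 to 4 were at days 164, 239, 242 and 248 of pregnancy, and the labels name no treatment. The endometrium came from between the placentomes of the pregnant horn and was digested with collagenase. The blood was drawn from the heart after slaughter, so the reference is blood of the same pregnant cows and not of cows that were not pregnant. The RNA of each of the 16 samples was amplified before labeling, and the pair of samples from an animal was measured on 2 arrays. For every main test n is 4 animals, and it is fewer where an animal was left out.

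Galectins are soluble lectins that bind beta-galactosides on glycoproteins and glycolipids. They are made in the cytosol, leave the cell without a signal peptide, and cross-link surface glycans of leukocytes, epithelium and matrix. Galectin-1 and galectin-2 are prototype members with a single binding domain, galectin-3 is the chimera member with an added oligomerizing tail, and galectin-4, galectin-8, galectin-9 and galectin-12 are tandem-repeat members with a pair of binding domains. Macrophages are a major source of galectin-3 and galectin-9, and the uterus of several species makes galectins during pregnancy, when they have been studied for effects on T cell survival and tolerance.

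The probes below are shown because their values carry the results on the prototype, chimera and tandem-repeat members. Each is the array's 60-base probe, printed 5′ to 3′ as the scanner files give it. In the LGALS1 and LGALS3 probes the capitals mark a stop triplet, with 9 and 20 bases after it. It is the one farthest along among the first stops of those of the 3 forward reading frames that hold a stop. The LGALS1, LGALS8, LGALS9 and LGALS12 probes shown have 1, 1, 3 and 1 forward frames with no stop triplet. The LGALS3 probe has no such frame. At least 1 such frame is found in 8 of the 9 galectin probes and in 82.7% of all probes on the array. No transcript annotation was used here, so the true reading frame was not established.
LGALS1 (A_73_114897): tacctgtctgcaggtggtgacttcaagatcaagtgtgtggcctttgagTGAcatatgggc
LGALS3 (A_73_102756): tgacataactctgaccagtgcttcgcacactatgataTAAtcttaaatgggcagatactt
LGALS8 (A_73_114176): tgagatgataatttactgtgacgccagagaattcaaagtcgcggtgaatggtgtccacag
LGALS9 (A_73_101066): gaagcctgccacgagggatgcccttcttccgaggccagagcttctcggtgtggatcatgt
LGALS12 (A_73_117947): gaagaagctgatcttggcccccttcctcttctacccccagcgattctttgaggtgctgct

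The longest run of letters that any of the 36 pairs of galectin probes share, on either strand, is 8 bases. GC content runs from 38.3% in the LGALS3 probe to 60.0% in the LGALS9 probe, against a median of 43.3% over all probes. The polyadenylation signal AATAAA, searched on both strands, occurs in 1 of the 9 galectin probes, that of LGALS4, and in 15.2% of all probes.

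Levels are the authors' normalized log2 values, averaged over the spots of a probe and the 2 arrays of an animal. They are compared only within a probe, since probes bind with different strength. The ratio is the endometrial minus the blood log2 value within an animal. Passing the test required a limma adjusted p no higher than 0.05 together with a more than 2-fold difference. Of 16653 tested probes 224 passed, or 1.35%, with 204 (1.23%) higher in endometrium and 20 (0.12%) in blood. The median ratio over all tested probes was -0.14, and -0.01 when each array was centred on its median.

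The 4 blood samples were not alike, which bears on every ratio below. The CD14 probe was at 16.12 in blood of animal 1 and at 5.76, 8.85 and 6.94 in blood of animals 2 to 4, and it ran from 6.07 in animal 2 to 14.04 in animal 1 in endometrium. It was well above background in every sample. The log2 of the summed level of 7 monocyte and macrophage identity genes was 18.39 in blood of animal 1, and 14.48, 13.73 and 13.46 in blood of animals 2 to 4. In endometrium the same sum was 18.11, 15.14, 16.91 and 16.69. The sum of 9 T and natural killer cell genes in blood ran the other way, at 13.16 in animal 1 and 16.77, 15.96 and 17.19 in animals 2 to 4, and in endometrium it ran from 16.95 to 18.98. None of the 7 identity genes and none of the 9 T and natural killer genes passed the test. Of the 9 tested tissue macrophage genes 7 passed it, all higher in endometrium, with median ratios of 4.36, 3.14, 3.81 and 4.03 in animals 1 to 4, and their summed level ran from 11.70 to 15.74 in blood and from 14.14 to 19.09 in endometrium. Of the 17 endometrial epithelium genes 7 passed it, all higher in endometrium, and their summed level ran from 12.40 to 13.58 in blood and from 15.73 to 18.76 in endometrium. Of the 9 tested trophoblast genes 6 passed it, also higher in endometrium, and their sum ran from 11.48 to 13.19 in blood and from 15.53 to 17.27 in endometrium. In bulk samples such as these, fewer cells of a type and less RNA per cell cannot be told apart.

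None of the 9 galectin probes passed the test, with 1.35% of all tested probes as background. With the p left unadjusted, limma gave 1 of the 9 past the threshold with higher values in endometrium, LGALS3, as it did 7.98% of all tested probes. It gave 1 of the 9 with higher values in blood, the second LGALS8 probe, as it did 8.05% of all tested probes. LGALS3 was the only galectin probe above blood in the endometrium of 4 of 4 animals, as 9.82% of tested probes were, and the second LGALS8 probe the only one below it in 4 of 4, as 15.2% were. The endometrial and blood levels overlapped for each of the 9 probes, and did not overlap for 6.06% of all tested probes. The median of the absolute mean ratio was 0.43 over the galectin probes and 0.64 over all tested probes. The median SD of the 4 ratios was 1.49 over the galectin probes and 1.12 over all tested probes.

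**Figure D1:**
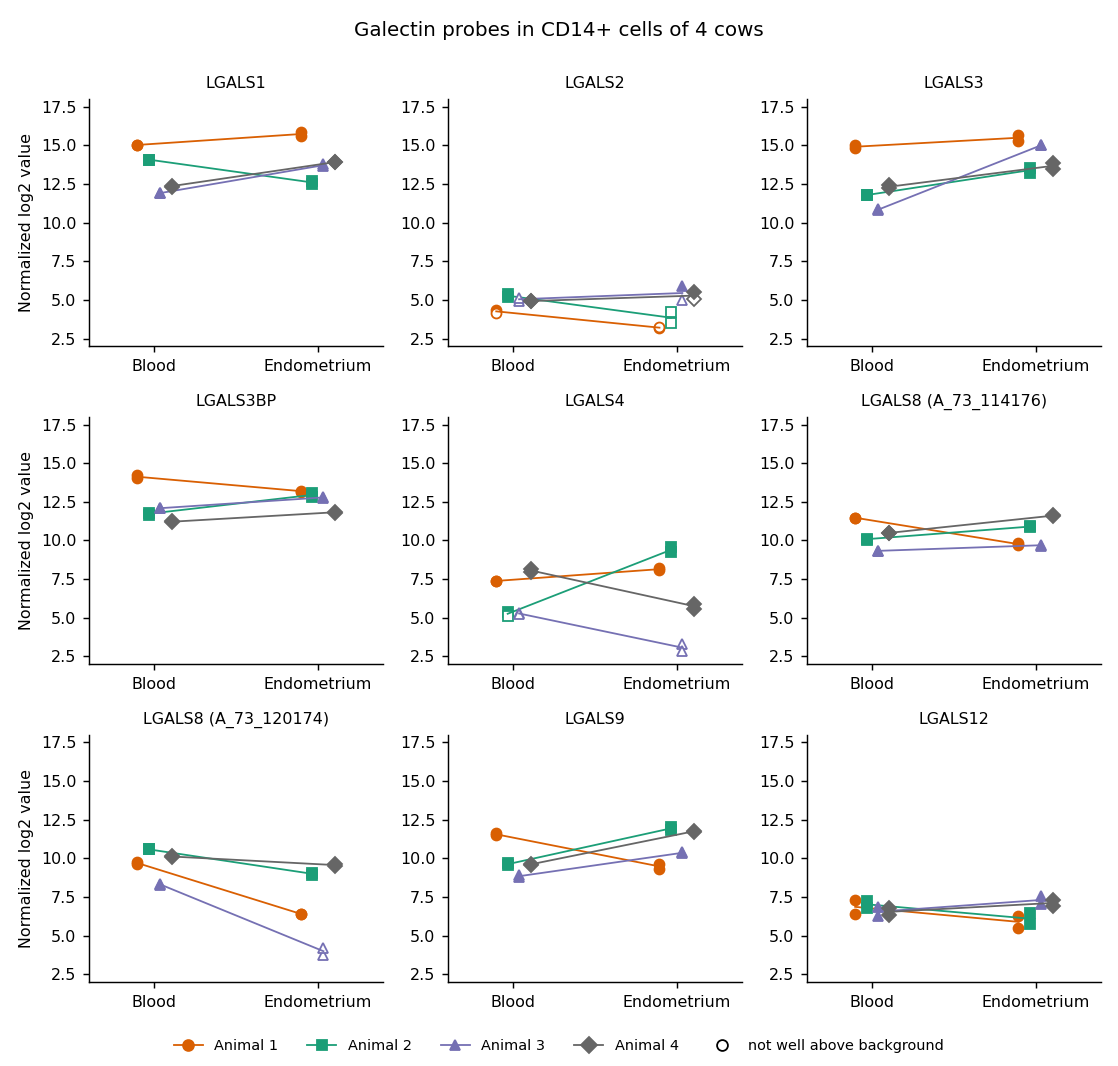
Normalized log2 value (vertical axis) of each galectin probe in blood and endometrial CD14+ cells; each marker is 1 array, lines join the 2 tissues of an animal through its means, and open markers were not well above background. For most probes the 2 arrays of an animal lie close together while animals lie far apart. For LGALS12 the arrays differ by up to 0.93, against a range of 0.49 among the blood samples. For LGALS2 they differ by up to 0.90, against a range of 1.01 in blood. The LGALS3 line goes up and the line of LGALS8 probe A_73_120174 goes down in 4 of 4 animals.

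Galectin-3 is abundant in macrophages and in many epithelia, where it acts on phagocytosis, cell adhesion and the repair of damaged lysosomes. The LGALS3 level was 15.49, 13.39, 15.01 and 13.67 in endometrium of animals 1 to 4, and 14.91, 11.78, 10.84 and 12.32 in blood. Blood of animal 1 lay above the endometrial levels of animals 2 and 4, so the groups overlapped. The ratios of animals 1 to 4 were 0.58, 1.61, 4.17 and 1.35. Their mean was 1.93 ± 0.67 (SE, n = 4), a 3.81-fold difference with a 95% interval from 0.35 to 3.51 on the log2 scale, and the limma adjusted p was 0.245. This ratio was larger in size than that of 89.6% of tested probes.

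The LGALS3 ratio rested in part on animal 3, whose 2 arrays both carried endometrium in Cy5, so that a dye difference would not cancel there. With a dye term and the animal as a random block, fitted on the 8 array ratios of the 4 animals, the mean ratio was 1.96. The limma adjusted p of that fit was 0.120. Without animal 3 the mean ratio was 1.18, with a limma adjusted p of 0.481. Without animal 1, whose blood stood apart in its monocyte genes, it was 2.38, with an adjusted p of 0.327. The blood sample with the highest LGALS3 level, that of animal 1, was also the one with the highest identity sum, and animal 3, with the lowest blood LGALS3 level, had an identity sum of 16.91 in endometrium against 13.73 in blood. In animal 4 the identity sum was likewise higher in endometrium, at 16.69 against 13.46 in blood. Its LGALS3 ratio was 1.35, against 4.17 in animal 3. In animal 2 the sum was 15.14 in endometrium against 14.48 in blood, with an LGALS3 ratio of 1.61. In animal 1 the sum was lower in endometrium, at 18.11 against 18.39 in blood, with an LGALS3 ratio of 0.58. Endometrium of animal 3 also had the highest summed level of epithelial genes, at 18.76 against 15.73 to 17.60 in the other animals. A single gene, SERPINA14, carried most of the 17.60 of animal 4, where it was at 17.44. In animal 3 it was at 17.61. The part of monocyte and tissue macrophage content and of epithelial RNA in the LGALS3 ratio was not tested.

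**Figure D2:**
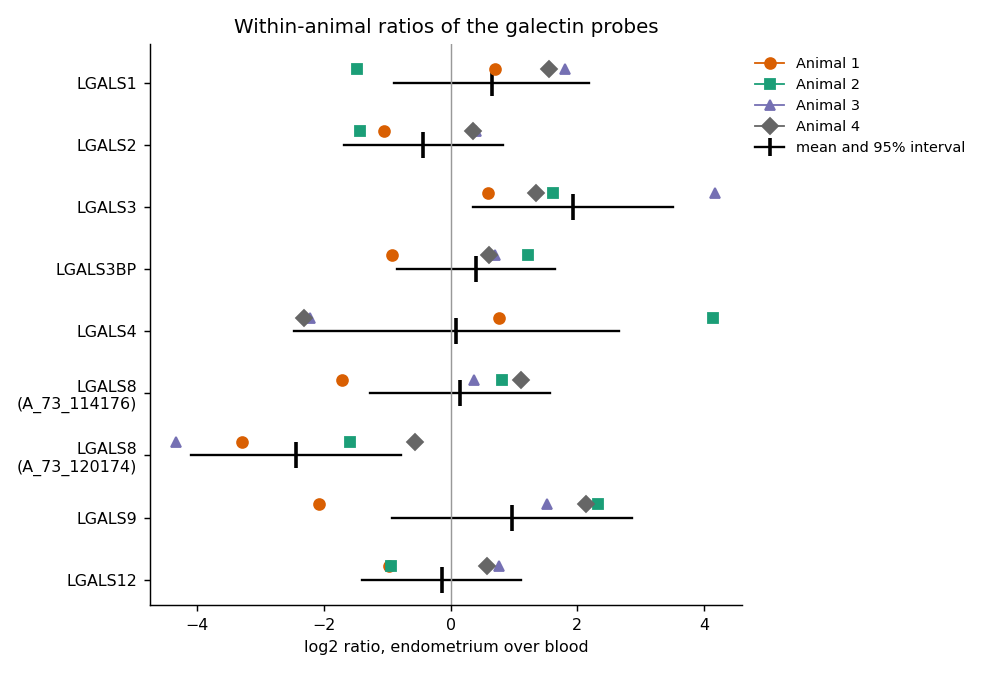
Within-animal log2 ratio of endometrium over blood (horizontal axis) for each galectin probe; coloured markers are the 4 animals, black bars the mean and its 95% interval from limma. The interval lies above 0 for LGALS3 and below 0 for LGALS8 probe A_73_120174, and spans 0 for the other 7 probes.

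Galectin-3-binding protein, the product of LGALS3BP, is a secreted glycoprotein that binds galectins and matrix proteins. Its level was 13.19, 12.95, 12.79 and 11.83 in endometrium and 14.12, 11.73, 12.09 and 11.21 in blood of animals 1 to 4. Blood of animal 1 held the highest value of all samples, and in the other animals endometrium was above blood. The ratios were -0.93, 1.22, 0.70 and 0.61, with a mean of 0.40 ± 0.53 (SE, n = 4), a 95% interval from -0.85 to 1.64 and a limma adjusted p of 0.757. Without animal 1 the mean was 0.84, with an adjusted p of 0.542, and without animal 2 it was 0.13, with an adjusted p of 0.966.

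Galectin-1 is an immunoregulatory galectin known for inducing death or tolerance of activated T cells, and it is produced by stromal cells, endothelium and macrophages. The LGALS1 level was 15.73, 12.60, 13.72 and 13.91 in endometrium and 15.03, 14.08, 11.91 and 12.36 in blood of animals 1 to 4. Both tissues of animal 1 had the highest level of their group, and the order of the tissues was turned in animal 2. The ratios were 0.71, -1.48, 1.80 and 1.55, with a mean of 0.65 ± 0.65 (SE, n = 4). The 95% interval ran from -0.89 to 2.19, and the limma adjusted p was 0.666. The mean moved with single animals, to 1.35 without animal 2, to 0.26 without animal 3 and to 0.35 without animal 4, with adjusted p of 0.433, 0.919 and 0.867. Endometrium of animal 2 also had the lowest summed level of 14 stromal genes, at 9.52 against 12.24 to 18.60 in endometrium of the other animals, and their ratio in animal 2 had a median of -0.14. Animal 1, with the highest LGALS1 level in endometrium, had the highest stromal sum. Other samples did not follow this order. Blood of animal 2 had a stromal sum of 9.69 with an LGALS1 level of 14.08. Endometrium of animal 4 had a lower stromal sum than that of animal 3, 12.24 against 13.77, with a higher LGALS1 level, 13.91 against 13.72. The part of stromal RNA in the LGALS1 ratio was not tested.

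Galectin-2 is a prototype galectin known mainly from the gut. The LGALS2 probe was dim, being well above background in 2 of the 8 endometrial channels and 5 of the 8 blood channels. Its level ran from 3.21 to 5.45 in endometrium and from 4.26 to 5.27 in blood, and none of the endometrial channels of animals 1 and 2 was above background. The ratios were -1.06, -1.42, 0.40 and 0.35, with a mean of -0.43 ± 0.53 (SE, n = 4), a 95% interval from -1.68 to 0.82 and a limma adjusted p of 0.739. At this signal a difference between the tissues could not be measured well. Over the 8 animal and tissue means the LGALS1 and LGALS2 levels were correlated with r of -0.44, with LGALS2 near the background.

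Galectin-9 is a tandem-repeat galectin induced by interferon that acts on T cells and on macrophages. The LGALS9 level was 9.48, 11.94, 10.36 and 11.75 in endometrium and 11.55, 9.62, 8.84 and 9.61 in blood of animals 1 to 4. In animal 1 blood was 4.22-fold above endometrium, and in animals 2 to 4 endometrium was 4.99-fold, 2.86-fold and 4.41-fold above blood. The ratios of -2.08, 2.32, 1.51 and 2.14 gave a mean of 0.97 ± 0.80 (SE, n = 4), a 95% interval from -0.92 to 2.87 and a limma adjusted p of 0.584. Without animal 1 the mean was 1.99, the unadjusted p 0.0125 in limma's test across all probes, and the adjusted p 0.278. Animal 1 was the one with a ratio below 0, and leaving out animal 2 or animal 4 lowered the mean to 0.53 or 0.58, with adjusted p of 0.874 and 0.810.

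The sign pattern of LGALS9, lower in endometrium of animal 1 and higher in that of animals 2 to 4, was shared by LGALS3BP and by the first LGALS8 probe. So 3 of the 9 galectin probes had this pattern, and 971 of all 16653 tested probes, or 5.83%, had it. The pattern was taken from LGALS9 after its values were seen, and LGALS9 is among the 3, so the count cannot show an excess. Animal 1 differed from the other animals in its day of pregnancy, 164 against 239 to 248, and in the monocyte and T cell genes of its blood. Its endometrium stood apart as well. There the summed level of tissue macrophage genes was 19.09, against 14.14 to 16.63 in endometrium of the other animals. The stromal sum was 18.60 against 9.52 to 13.77. With a single animal these cannot be told apart.

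**Figure D3:**
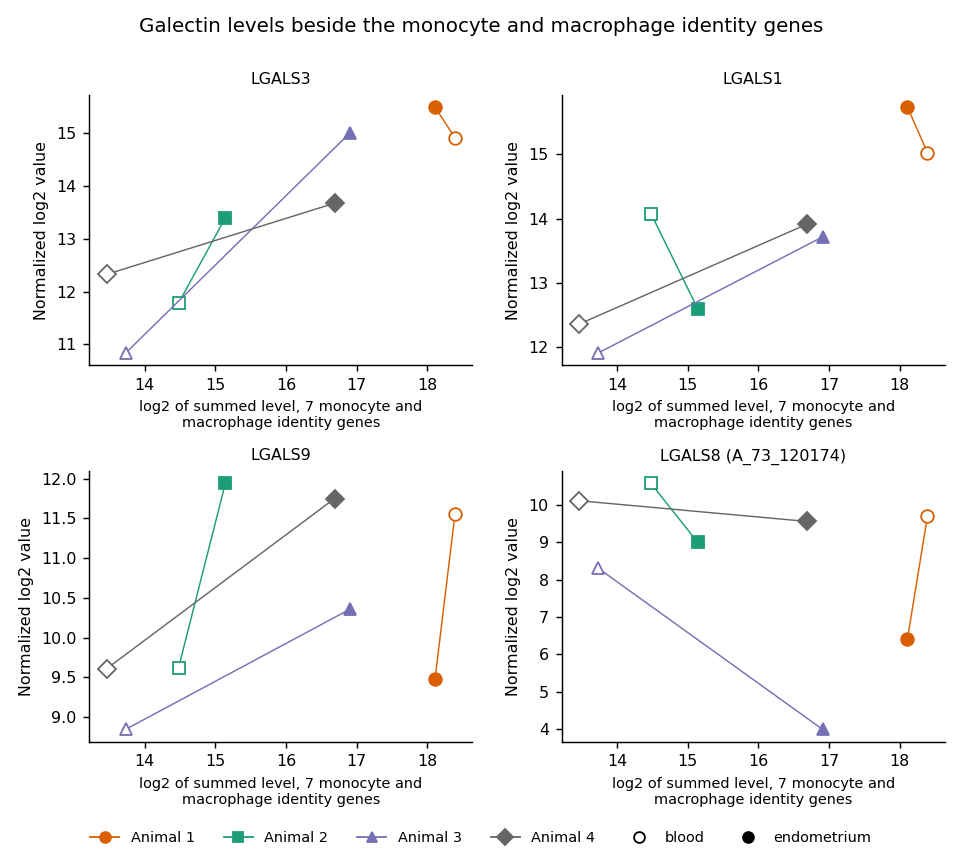
Normalized log2 value of LGALS3, LGALS1, LGALS9 and LGALS8 probe A_73_120174 (vertical axes) against the log2 of the summed level of 7 monocyte and macrophage identity genes (horizontal axes); open markers are blood, filled markers endometrium, and lines join the tissues of an animal. Both tissues of animal 1 lie to the right of all others, above 18. LGALS1 had its highest levels in these 2 samples and LGALS3 its highest in endometrium of animal 1, while LGALS9 of animal 1 was high in blood and low in endometrium.

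Galectin-8 is a tandem-repeat galectin that binds integrins at the surface and marks damaged vesicles inside the cell. The first LGALS8 probe, A_73_114176, shown above with its sequence, gave levels of 9.76, 10.90, 9.69 and 11.61 in endometrium and 11.47, 10.08, 9.33 and 10.49 in blood of animals 1 to 4. The highest blood level was again that of animal 1. The ratios were -1.71, 0.81, 0.37 and 1.11, with a mean of 0.15 ± 0.60 (SE, n = 4), a 95% interval from -1.27 to 1.56 and a limma adjusted p of 0.934. Without animal 1 the mean was 0.76, with an adjusted p of 0.579, and without animal 4 it was -0.18.

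The second LGALS8 probe, A_73_120174, has the same transcript accession in the array's annotation. It gave levels of 6.41, 9.0, 3.99 and 9.56 in endometrium and 9.70, 10.58, 8.31 and 10.12 in blood of animals 1 to 4. Blood was above endometrium in each animal, but the endometrial levels of animals 2 and 4 were above the blood level of animal 3. In endometrium of animal 3 neither channel was well above background, so its ratio is only a bound. The ratios were -3.29, -1.58, -4.32 and -0.55, with a mean of -2.44 ± 0.70 (SE, n = 4), or 5.41-fold higher in blood, a 95% interval from -4.09 to -0.78 and a limma adjusted p of 0.196. Without animal 3 the mean was -1.81, with an adjusted p of 0.436. From the scanner's median signals, with a background correction that raises dim values, the mean was -1.11, with an adjusted p of 0.263.

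The 2 LGALS8 probes thus gave different answers for 1 gene. The ratio of the second probe minus that of the first was -1.58, -2.40, -4.69 and -1.67 in animals 1 to 4. The mean difference was -2.58 ± 1.45 (SD, n = 4 animals), with a two-sided exact permutation p of 1 in 8, the smallest that 4 animals allow. Among 584 genes with 2 tested probes the median difference between their mean ratios was 0.69, and 5.31% had a larger difference than LGALS8. Over the 8 animal and tissue means the levels of the 2 probes were correlated with r of 0.53, where points share animals and arrays. The mean of both probes was -1.14, with a limma adjusted p of 0.399, and no single direction can be given for LGALS8.

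Galectin-4 is a tandem-repeat galectin of digestive epithelium. The LGALS4 level was 8.15, 9.39, 3.07 and 5.75 in endometrium and 7.38, 5.26, 5.28 and 8.06 in blood of animals 1 to 4, and the probe was well above background in 6 of 8 channels of each tissue. In animals 1 and 2 endometrium was above blood and in animals 3 and 4 below it. In blood of animals 2 and 3, 1 of the 2 channels was not well above background, so the ratios of these animals rest on levels near the background. The ratios of 0.76, 4.13, -2.21 and -2.31 had an SD of 3.05, larger than that of 96.8% of tested probes. Their mean was 0.09 ± 1.09 (SE, n = 4), with a 95% interval from -2.47 to 2.66 and a limma adjusted p of 0.981.

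The spread of LGALS4 was between animals and not between arrays, since the 2 arrays of an animal differed by at most 0.49. It rests in part on dim values. From the scanner's median signals, with a background correction that raises dim values, the mean was 0.26 ± 0.44 (SE, n = 4). Levels of animal 3 were then 6.06 and 5.97 in endometrium and 6.18 and 6.13 in blood. In endometrium of animal 3 neither channel was well above background, so the ratio of -2.21 compares levels near the background. That endometrial sample had the highest summed level of endometrial epithelium genes, so the LGALS4 and epithelial levels did not go together in it. Without animal 2 the mean was -1.25, with an adjusted p of 0.573, and without animal 4 it was 0.90.

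Galectin-12 is known from adipocytes and from some leukocytes. The LGALS12 level stayed in a narrow band, from 5.89 to 7.31 in endometrium and from 6.54 to 7.03 in blood, and was well above background in every channel. The ratios were -0.97, -0.93, 0.76 and 0.58, with a mean of -0.14 ± 0.53 (SE, n = 4), a 95% interval from -1.39 to 1.11 and a limma adjusted p of 0.927. The 2 arrays of an animal differed by up to 0.93, which is more than the range of 0.49 among the 4 blood samples. The difference had 1 sign, with slide 1 above slide 2 in 8 of 8 samples, by 0.40 to 0.93. LGALS3 also had a difference of 1 sign, with slide 1 higher in 0 of 8 samples. Its slide 1 minus slide 2 values ran from -0.41 to -0.03.

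**Figure D4:**
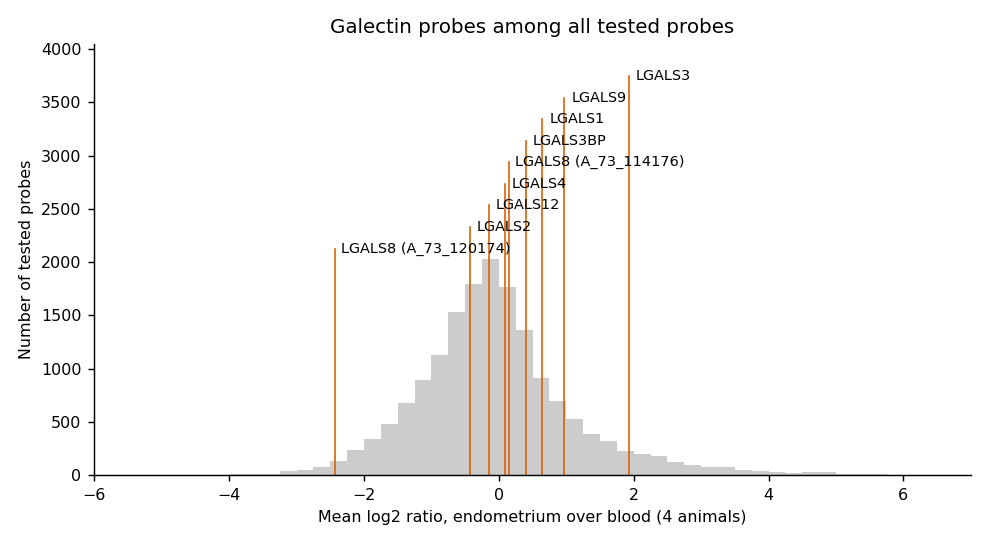
Number of tested probes (vertical axis) by mean log2 ratio of endometrium over blood (horizontal axis), in grey bins of 0.25, with the 9 galectin probes as vertical lines whose heights carry no value. Of the galectin probes 7 lie between -0.43 and 0.97, near the middle of the distribution, LGALS3 at 1.93 and LGALS8 probe A_73_120174 at -2.44.

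Across the 8 animal and tissue means, the levels of galectin pairs differed widely in how alike they were. The pairs with the highest correlation were LGALS2 and LGALS12 with r of 0.87, the first LGALS8 probe and LGALS9 with r of 0.86, LGALS1 and LGALS3 with r of 0.76, and LGALS3 and LGALS3BP with r of 0.71. The lowest were LGALS4 and LGALS12 with r of -0.81 and LGALS4 and LGALS2 with r of -0.78. These are descriptions over 8 points from 4 animals that share arrays and normalization, and LGALS2 and LGALS12 are both dim.

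Among all named probes tested, those most like LGALS3 over the 8 means were HSPB1, a small heat shock protein, PGRMC1, a progesterone receptor membrane component, and ATP6V0B, a subunit of the lysosomal proton pump, with r of 0.98, 0.98 and 0.97. Among the probes most like LGALS3BP were SGK1, a kinase induced by glucocorticoids, and TTC13, each with r of 0.98. LGALS9 was most like ATG4A, an autophagy protease, NTHL1, a DNA repair enzyme, and CCDC88B, with r of 0.96, 0.93 and 0.92. LGALS1 was most like PCDH19, PKD1 and SPATA6, with r of 0.95, 0.93 and 0.93. The first LGALS8 probe was most like MAGI3, TBC1D23 and ZNF75A, with r of 0.92, 0.92 and 0.90. The dim LGALS2 probe was most like ALOX12B, ARSL and CBY2. LGALS4 was most like FAM98C, MFSD8 and TFB1M, and LGALS12 like ZBTB7C, ANKS1B and SP6. For LGALS2, LGALS4 and LGALS12 these r were between 0.96 and 0.99. All these r were picked as the highest among all named probes tested, over 8 points that share animals and arrays. The highest r listed, 0.99 with ALOX12B, was that of LGALS2, which was near the background. A high r here therefore does not show that genes are linked, and how high r runs by chance in such a search was not tested.

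The genes around the galectins were described with a list of 67 genes of galectin partners and of enzymes that build or cap their glycans, of which 57 were tested. None of the 57 passed the test, with 1.35% of all tested probes as background. With the limma p left unadjusted, 8 of the 57 passed, 4 in each direction, against 7.98% and 8.05% of all tested probes. The median ratio was 0.06 over the list and -0.14 over all tested probes.

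Of the 28 tested secreted and surface partners 17 had a ratio above 0, with a median of 0.37. Over all tested probes the median was -0.14, with quartiles of -0.74 and 0.48. CD7, a glycoprotein of T and natural killer cells and a receptor for galectin-1, had the largest ratio, from 8.26 to 10.60 in blood and 10.39 to 15.51 in endometrium. Its mean ratio was 3.41 ± 0.68 (SE, n = 4), with a limma adjusted p of 0.0887. TNFRSF9, a costimulatory receptor that binds galectin-9, ran from 5.08 to 10.87 in blood and from 9.16 to 14.01 in endometrium, with a mean of 2.97 and an adjusted p of 0.0672. LAMC1, a laminin chain, and MUC1, an epithelial mucin, had ratios of 2.93 and 2.59 with adjusted p of 0.153 and 0.117. For these 4 genes the ratio was above 0 in each animal, with overlapping groups. The ratio of the T and natural killer genes had a median of 1.20, that of the epithelial genes 3.05 and that of the stromal genes 2.56, and the part of such cells in the partner ratios was not tested. CD40, a costimulatory receptor of B cells and macrophages, had a ratio of -2.07 with an adjusted p of 0.248. The 5 B cell genes had a median ratio of -2.57, with none past the test, and their part in the CD40 ratio was not tested.

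Of the 20 tested enzymes of glycan branching and capping 9 had a ratio above 0, with a median of -0.55. Most of all tested probes likewise had a ratio below 0, with a median of -0.14 and quartiles of -0.74 and 0.48. MGAT4A, which adds a branch to N-glycans, was between 10.15 and 11.09 in blood and between 6.55 and 9.24 in endometrium, so that the groups did not overlap. Its mean ratio was -2.50 ± 0.58 (SE, n = 4), a 5.66-fold difference, with a limma adjusted p of 0.132. MGAT5, which adds the branch that galectin-3 binds, had levels from 9.65 to 12.79 in blood and from 8.59 to 11.37 in endometrium, with a ratio of -1.18 and an adjusted p of 0.279. C1GALT1, which makes the core of O-glycans, had mean levels of 11.13 ± 0.57 in blood and 9.90 ± 0.47 in endometrium (SD, n = 4), which did not overlap, with a ratio of -1.23 and an adjusted p of 0.295. These 3 were among 6 of the 20 enzymes that were lower in endometrium in 4 of 4 animals, as 15.2% of all tested probes were, the others being B4GALT3, ST3GAL1 and MAN1A1. The tissues did not overlap for 2 of the 20 enzymes, against 6.06% of all tested probes. The 9 intracellular partners, among them the lysosomal damage adaptors TRIM16 and CALCOCO2, had a median ratio of -0.05, and none had an unadjusted p of at most 0.05.

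**Figure D5:**
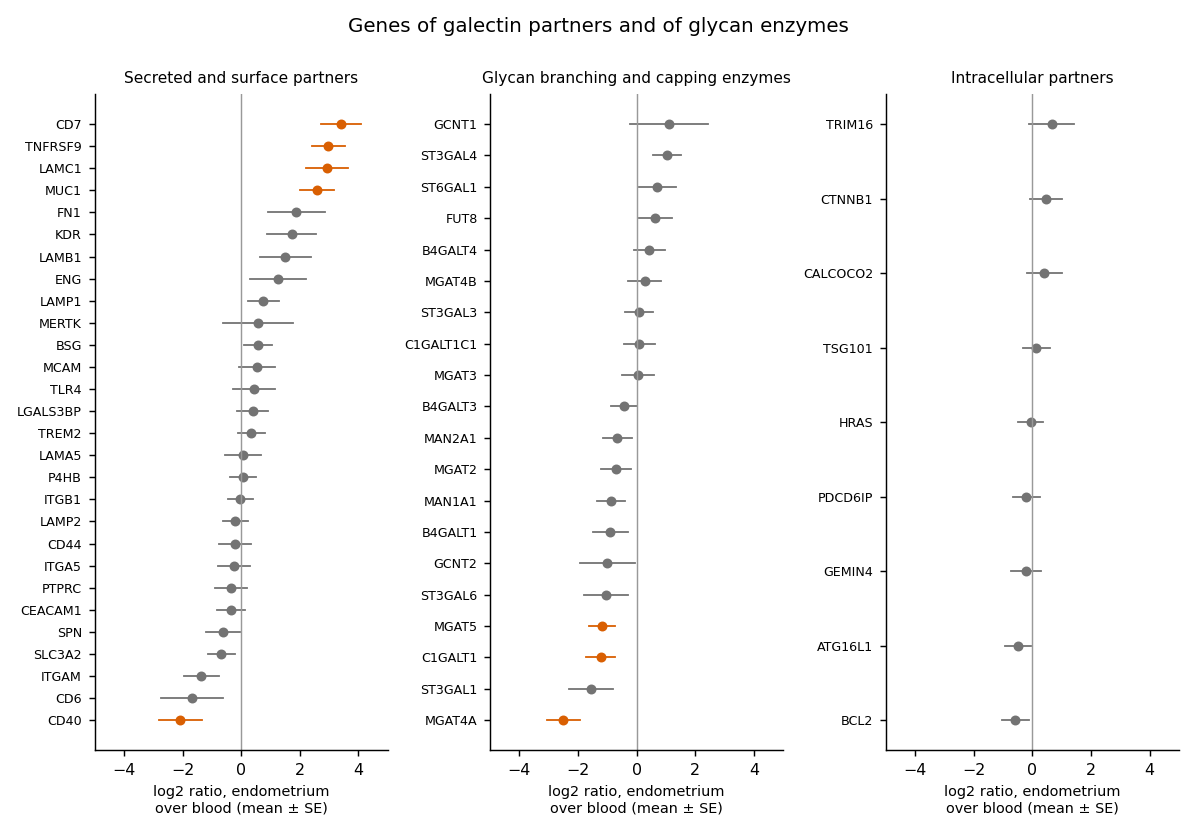
Mean log2 ratio of endometrium over blood (horizontal axis) with its SE over 4 animals for the tested genes of the galectin partner and glycan enzyme lists; orange marks the 8 genes with an unadjusted limma p of at most 0.05 and a fold over 2. CD7, TNFRSF9, LAMC1 and MUC1 lie at the top of the surface partners, between 2.59 and 3.41, and MGAT4A lies lowest of the enzymes at -2.50.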

How the data were processed

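The authors deposited a value table of 16 columns with log2 values, to which they had applied lowess in each array and then quantile normalization, and scanner files with the intensity of each spot in each dye. Scanner files name Feature Extraction 10.5.1.1 and the submitters' processing notes 9.5. Levels were taken from the value table through the spot number, spots of a probe were averaged, and groups were taken from its labels. Each column matched 1 scanner channel, at 100% of probes within 0.001 (log2). This was the channel of its own dye and animal, but in the file listed under the animal's other array, and background flags were read from there. Read by these columns, endometrium was in Cy5 on all arrays of slide 1, and the dyes were swapped on slide 2 in 3 of the 4 animals. No column of per-sample values was left out.

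Ratios were computed within animals, and limma 3.58.1 (lmFit and eBayes, R 4.3.3) tested the mean of 4 animals against 0, with p adjusted by Benjamini and Hochberg over 16653 probes that were well above background in at least 4 of 8 channels of at least 1 tissue. Tissues were paired by the animal number in the labels. As a check, the deviations of the paired samples from their tissue means had r of 0.63, 0.37, 0.24 and 0.45, animals 1 to 4. With no counts in these files, the number of animals limits precision. Nothing says more of the animals than that they are separate, and the arrays of an animal are technical.

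Galectin probes were all named. Partner genes were named if they passed the test or were among the 5 largest ratios, and the other genes past an unadjusted p were named after their values were seen. The 3 most alike probes of each gene were named by Pearson's r, except 1 that is not reported here. Members and lists were chosen with earlier results of these data known. Symbols were updated from a RefSeq gene table of assembly ARS-UCD2.0 (limited to names). Protein sequences were not analysed here. Alternatives changed the intensities, the attached files, centring, the filter, pairing, slide, dye, test, threshold, probes and animals.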

Additional observations from a re-analysis of the deposited data

How the results depend on the processing

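No galectin probe passed the adjusted test under any alternative, and the LGALS3 ratio ran from 1.18 to 2.38 in 16 of 17 alternatives and fell to 0.20 in the other. Scanner files read as the samples they are attached to turned the ratio of LGALS2 (0.0817), LGALS3BP (-0.0666), LGALS4 (-0.33), both LGALS8 probes (A_73_114176 -0.0139, A_73_120174 0.61), LGALS9 (-0.25) and LGALS12 (0.19), and left 0 of all probes past the adjusted test; that reading, which also gave the LGALS3 ratio of 0.20, exchanges the tissues in animals 1, 2 and 4 and leaves animal 3 as it was. By the value table's labels the epithelial genes had median ratios of 2.81, 3.19, 4.43 and 1.87 in animals 1 to 4. The mean over both LGALS8 probes was -1.14. At an unadjusted limma p 2 galectin probes passed, LGALS3 at 1.93 and LGALS8 A_73_120174 at -2.44, with 8 partner genes and 2670 of all probes. Against 224 of all probes, 6 passed with normexp, loess and quantile on scanner medians, 123 with no filter, 1229 by the methods' analysis of variance unadjusted (8 partner genes, 0 galectin probes) and 0 adjusted. Without the pairing (no replicate block) 38 passed, and the adjusted p of LGALS3 was 0.526. Partner genes that passed were 2 with the filter at all 8 channels, under which LGALS2 and LGALS4 were not tested. With a dye term and the animal as a random block, fitted on 8 array ratios, 3 partner genes passed. Leaving out each animal gave 0 to 180 passing probes (64 without animal 1, 95 without animal 3, 0 without animal 4), no partner gene, and ratios from -1.25 to 0.90 for LGALS4, from -0.18 to 0.76 for LGALS8 A_73_114176 and from -0.44 to 0.14 for LGALS12. The blocked and unblocked fits differed in no galectin call. The 95% intervals given are not adjusted for the number of probes tested. With 4 animals, even differences whose interval excluded 0 failed the adjusted test, those of LGALS3 and LGALS8 A_73_120174. Smaller differences could therefore go undetected.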

Other observations

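A probe outside the naming rule is annotated as similar to galectin-5 and carries the symbol LGALSL, galectin-like, in the RefSeq gene table. Its log2 ratios of endometrium over blood were -0.15, -3.54, 0.29 and 0.52 in animals 1 to 4, with a mean of -0.72 and a limma adjusted p of 0.683. LGALSL thus had endometrium above blood in 2 of 4 animals, as LGALS4 did, but in different animals.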
